A study of Mus musculus with 24 samples.

Results

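Reactivated Th1 cells were exposed to 500 nM JQ1 or to DMSO, the vehicle, and sampled at 6 hr and at 24 hr. These conditions took 4 of the 24 arrays of the series, and the labels alone placed each array: DMSO at 6 hr, JQ1 at 6 hr, DMSO at 24 hr and JQ1 at 24 hr, with 1 array each. All 4 samples were Th1 cells differentiated in vitro from female C57BL/6 mice, and all had been reactivated. The agent and length of reactivation on these arrays, the age of the mice and any pooling of animals are not given in the sources used here. Each array carried total RNA of the treated cells in the Cy3 channel and RNA of naive CD4+CD62L+CD25-CD44lo T cells of the same strain and sex, from spleen and lymph node, in the Cy5 channel. Both arrays of a time lay on the same slide, and each time had a slide of its own, so slide and time cannot be told apart.

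Values are log2 ratios of Cy3 (treated cells) over Cy5 (naive reference), and a change is the JQ1 ratio minus the DMSO ratio of the same time. A negative change is a lower level with JQ1. In a bulk sample, fewer cells of a type and less RNA per cell cannot be told apart.

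JQ1 occupies the acetyl-lysine pockets of the BET bromodomain proteins and displaces them from chromatin. BET proteins take part in the recruitment of P-TEFb, the kinase that releases paused RNA polymerase II into elongation. Th1 cells are CD4+ T helper cells directed by the transcription factor T-bet (Tbx21), and they answer renewed stimulation with a burst of cytokine transcription led by interferon gamma. The study asked how far such transcription depends on elongation factors. The comparison here asks which JQ1 changes of reactivated cells were present early, late or at both times.

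Between 43.8% and 49.8% of probes were well above background in Cy3 on these 4 arrays, and the lowest share was that of the 6 hr JQ1 array. The Th1 markers were high, and some Th2 markers were present as well. Tbx21 lay at ratios of 5.82 to 6.8 and Ifng at 8.33 to 8.59 over the 4 arrays, while Gata3, the Th2 master factor, lay at -0.34 to 0.55. Other Th2 markers lay above the naive level with DMSO, at 5.51 and 6.29 for Il1rl1, 3.71 and 4.6 for Il13 and 3.07 and 4.5 for Il4. With no replicate array, the only repeated RNA description was the naive reference. The SD of its difference over probes was 0.133 (log2) in the 6 hr pair and 0.134 in the 24 hr pair, against a median of 0.185 over 276 pairs of arrays. Spike-in RNA lay at -0.52 and 0.94 on the DMSO and JQ1 arrays of 6 hr and at -0.41 and -0.17 on those of 24 hr (log2 after loess). The 0.94 was the highest of all 24 arrays. Changes below are therefore relative to the bulk of genes, whose median change was -0.10 at 6 hr and -0.03 at 24 hr. With a spike-in shift after loess that median was -1.56 and -0.27, with spike-in centring -1.3 and -0.08, and with median centring -0.49 and -0.31.

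JQ1 lowered more genes than it raised at both times, by the loess ratio. Of 12275 genes tested, 787 (6.41%) were at least 2-fold lower at 6 hr and 340 (2.77%) at least 2-fold higher. At 24 hr 586 genes (4.77%) were at least 2-fold lower and 434 (3.54%) at least 2-fold higher. Lasting changes, of at least 2-fold in the same direction at both times, were seen for 378 genes lower (3.08%) and 208 higher (1.69%). Of these, 338 lower and 207 higher genes were well above background on all 4 arrays, and 19 of the lower genes on no JQ1 array. No gene was at least 2-fold lower at 1 time and at least 2-fold higher at the other. Of the 6 hr lower genes 48% were lower at 24 hr as well, and of the 24 hr lower genes 64.5% had been lower at 6 hr. Of the 6 hr higher genes 61.2% were higher at 24 hr, and of the 24 hr higher genes 47.9% had been so at 6 hr. The times share no array. Over genes, which are not independent replicates, their changes had a Pearson r of 0.799 and a Spearman rho of 0.763.

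**Figure D1:**
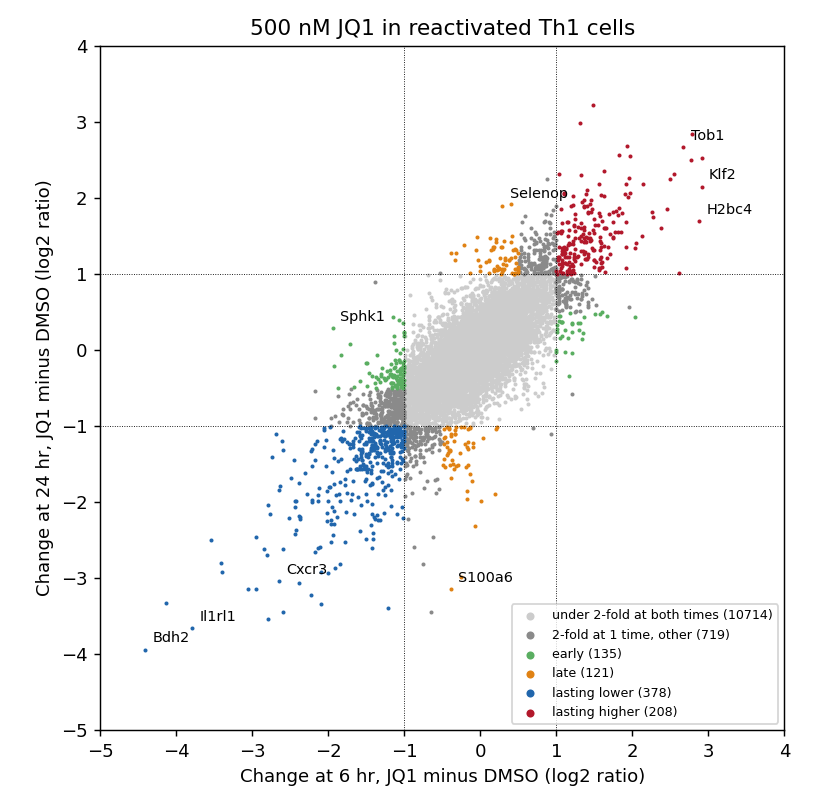
Change with 500 nM JQ1 in reactivated Th1 cells at 6 hr (x axis) against 24 hr (y axis), as log2 ratios, with 1 point per gene for 12275 genes and dotted lines at 2-fold. Blue points are the 378 genes lower and red points the 208 genes higher at both times, green points moved early and orange points late, and no point lies beyond 2-fold in opposite directions.

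The only test within these cells took the 2 time pairs as replicates of the JQ1 effect, so its error is the variation of the effect between 6 and 24 hr, with 1 residual degree of freedom. At an adjusted p of 0.05 (limma, Benjamini-Hochberg) it called 2280 genes (18.6%) lower and 1354 (11%) higher, and all 586 lasting genes were among the calls. "Fell" and "rose" below refer to this test. It made 658 lower and 358 higher calls without the time block, and none with the scanner software's own log ratios. The calls were 5591 lower and 444 higher with median centring, 92 and 0 with spike-in centring, and 217 and 0 with a spike-in shift.

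Among genes well above background on all 4 arrays the strongest lasting reductions were led by Bdh2, a short-chain dehydrogenase, and Il1rl1, which encodes ST2, the receptor of interleukin 33. Bdh2 lay at 6.36 with DMSO and 1.94 with JQ1 at 6 hr, and at 6.44 and 2.5 at 24 hr. Both JQ1 arrays were far below both DMSO arrays, a fall of 21.3-fold and 15.4-fold (limma, mean change -4.18, SE 0.17, adjusted p 6.05e-05). Il1rl1 lay at 5.51 and 1.71 at 6 hr and at 6.29 and 2.63 at 24 hr, with no overlap of DMSO and JQ1 arrays. It fell 13.9-fold and 12.7-fold (limma, mean change -3.73, SE 0.15, adjusted p 6.05e-05), and the mean change of its 3 measured probes ran from -3.73 to -1.62. Gypc, the red cell glycophorin C, started near the naive level, at 0.6 and 0.54 with DMSO, and lay at -2.47 and -2.59 with JQ1. Upb1, an enzyme of pyrimidine breakdown, went from 3.43 to 0.48 at 6 hr and from 3.61 to 0.48 at 24 hr. Ptpn5, a tyrosine phosphatase, went from 4.61 to 1.21 and from 4.17 to 1.25. Mcoln2, an endolysosomal cation channel, went from 3.25 to -0.16 and from 4.48 to 1.68. In each of these 6 genes the JQ1 arrays lay below both DMSO arrays. The 6 were chosen for the size of their changes on these same 4 arrays, so this gap is no further support.

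Strong lasting increases among genes above background on all 4 arrays included Tob1, an antiproliferative protein of quiescent T cells, and Klf2, a transcription factor that keeps T cells quiescent and recirculating. Tob1 lay at -0.12 with DMSO and 2.55 with JQ1 at 6 hr, and at -0.59 and 2.08 at 24 hr, a rise of 6.34-fold and 6.36-fold (limma, mean change 2.67, SE 0.15, adjusted p 0.000144). Klf2 lay far below the naive level with DMSO, at -5.06 and -5.01, and at -2.15 and -2.87 with JQ1. It rose 7.53-fold and 4.43-fold (limma, mean change 2.53, SE 0.2, adjusted p 0.000335) and still lay below the naive level. Abcg1, a cholesterol exporter, went from -4.25 to -1.48 at 6 hr and from -4.77 to -2.28 at 24 hr. Tubb3, a beta tubulin best known in neurons, went from 0.54 to 3.09 and from 0.24 to 2.56. Kifc2, a kinesin, went from -3.48 to -0.99 and from -3.21 to -0.96. Fam222a went from -1.14 to 1.76 and from -1.2 to 1.33. The JQ1 arrays lay above both DMSO arrays for all 6, which were chosen in the same way, so this too is no further support. At the 2-fold limit, Ppih (1) and Pusl1 (1.001) lay just inside the lower class and Fut7 and Il31 (0.999) just outside it, as the smaller of both changes in size. Ets1 (1.001) and Rab3d (1.004) lay just inside the higher class, and H3f3a (0.998) and Ddit4 (0.996) just outside.

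**Figure D2:**
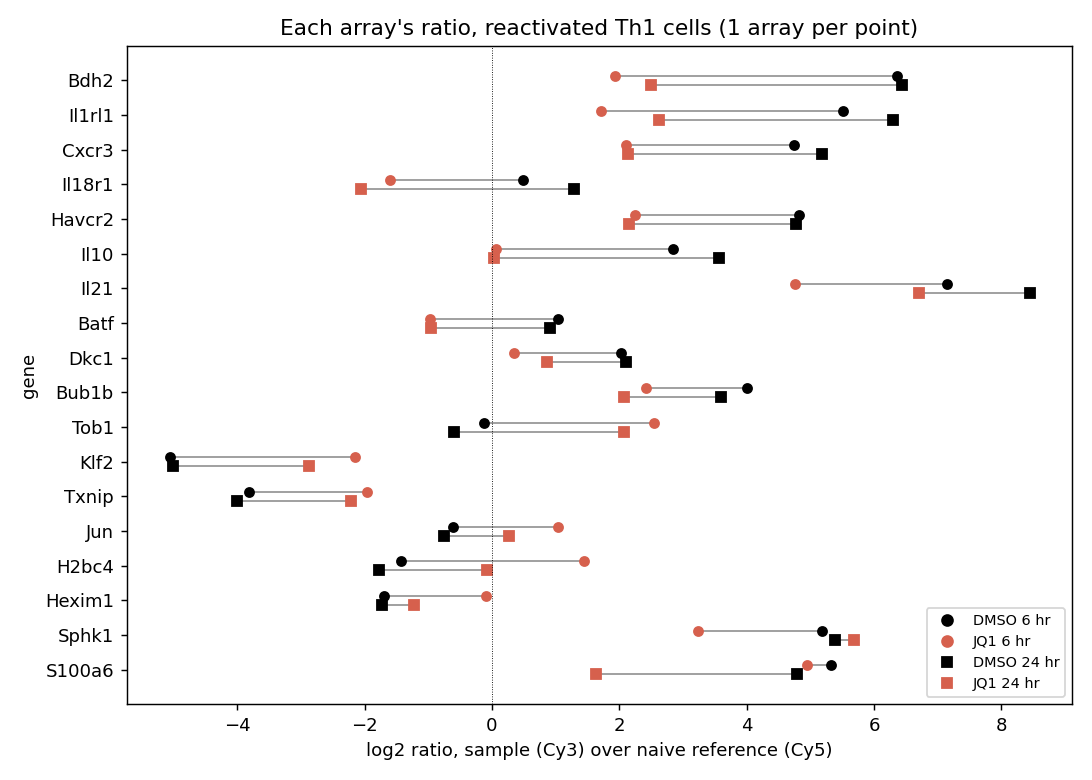
log2 ratio of treated cells over naive reference (x axis) on each of the 4 arrays for 18 genes (y axis), with DMSO in black and JQ1 in red, circles for 6 hr and squares for 24 hr, and 1 array per point with no error bar. Bdh2 and Il1rl1 fell and Tob1 and Klf2 rose at both times, Sphk1 was low with JQ1 at 6 hr alone and S100a6 at 24 hr alone.

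Many Th1 effector and identity genes fell, and none of them rose. Of 28 listed genes 27 were tested, 12 fell (44.4%, against 18.6% of all genes) and 0 rose, with a median change of -0.64 at 6 hr and -0.12 at 24 hr. Relative to all genes the sign of the 24 hr median turned under the scanner software's log ratio, and that of 6 hr did not in any scaling run. Cxcr3, the chemokine receptor that leads Th1 cells into inflamed tissue, lay at 4.75 with DMSO and 2.1 with JQ1 at 6 hr, and at 5.18 and 2.14 at 24 hr. It fell 6.26-fold and 8.24-fold (limma, adjusted p 0.000149). Both chains of the interleukin 18 receptor fell, Il18r1 by 4.26-fold and 10.2-fold and Il18rap by 4.69-fold and 9.3-fold, while the mean change of the 2 Il18r1 probes ran from -2.72 to -1.78. Havcr2, which encodes the inhibitory receptor Tim-3, went from 4.82 to 2.24 at 6 hr and from 4.78 to 2.16 at 24 hr, while the scanner software's log ratio gave it a mean change of 0.42. Tbx21 itself lay at 6.11 and 5.82 at 6 hr and at 6.35 and 6.8 at 24 hr, and was not called (limma, mean change 0.08, SE 0.2, adjusted p 0.802). Stat4, which carries the interleukin 12 signal, fell 2.71-fold and 3.06-fold (limma, adjusted p 0.000699).

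For several of the brightest effector genes the ratio hardly moved while the signals of both channels fell on the same spots. Ifng had changes of -0.19 and 0.10 as a ratio, and Il2, the T cell growth factor, -0.25 and -0.03; neither was called (limma, adjusted p 0.852 and 0.524). In Cy3 alone, after loess and Aquantile normalization, Il2 lay at 16.06 with DMSO and 13.74 with JQ1 at 6 hr, and at 17.98 and 15.62 at 24 hr. That was a change of -2.33 and -2.36 (limma on Cy3, adjusted p 7.28e-05), and the Cy5 signal of the same spots changed by -2.08 and -2.33. Ifng in Cy3 alone changed by -1.01 at 6 hr and -0.2 at 24 hr (limma on Cy3, mean change -0.6, SE 0.2, adjusted p 0.05). Its Cy5 signal changed by -0.81 and -0.3. In all, 8 genes had Cy3 at least 2-fold lower at both times and a ratio change above -0.5. They were Ccl1, Gzmb, Il2, Zbtb32, Ccl3, Tnfrsf9, Nrn1 and Tnf, and they were picked out after their values were seen. All 8 were also at least 2-fold lower at both times in the authors' deposited value table. Gzmb, the cytotoxic protease granzyme B, lay at 13.97 and 11.16 in Cy3 at 6 hr and at 14.8 and 11.73 at 24 hr, while its ratio changed by -0.12 and -0.09. Ccl1, a chemokine of activated T cells, changed by -4.44 and -3.34 in Cy3 and by 0.1 and 0.26 as a ratio. Only 1 gene, Npy1r, showed the opposite, with Cy3 at least 2-fold higher at both times and a ratio change under 0.5. Why Cy5 moved on the spots of these genes was not tested. In Cy3 alone 17 of the 27 Th1 effector genes fell and 0 rose, with medians of -1.01 and -0.72. Of all 12275 genes 2426 fell and 1644 rose in Cy3 alone, with medians of -0.07 and -0.02.

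**Figure D3:**
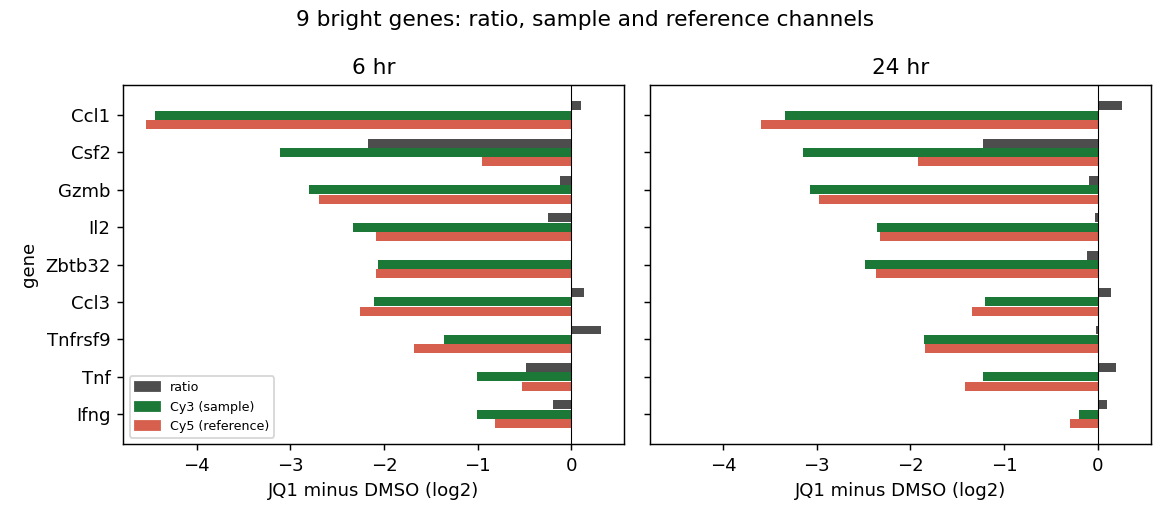
Change with JQ1 (x axis, log2) of the ratio, of the Cy3 signal (treated cells) and of the Cy5 signal (naive reference) for 9 genes (y axis), at 6 hr on the left and 24 hr on the right, with 1 pair of arrays per bar and no error bar. For Ccl1, Gzmb, Il2 and Zbtb32 both channels fell together and the ratio stayed near 0, while Csf2 fell in the ratio and further in Cy3.

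Most cytokine and growth factor genes that were measured on all 4 arrays fell. Of 12 such genes 9 fell (75%) and 1 rose (8.33%), against 18.8% and 11.8% of the 11010 genes measured on all 4, and their median change was -1.22 at 6 hr and -0.74 at 24 hr. The other 5 of 17 tested were not well above background on every array. Of these 3 were called lower, but their calls are no support for a fall of the list. Csf2, which encodes GM-CSF, lay at 7.51 with DMSO and 5.34 with JQ1 at 6 hr, and at 7.75 and 6.52 at 24 hr. It fell 4.49-fold and 2.34-fold (limma, adjusted p 0.00178), and in Cy3 alone it changed by -3.11 and -3.15. The scanner software's log ratio gave Csf2 the opposite sign, with a mean change of 0.75 (limma, adjusted p 0.0965). Il21, a helper cytokine for B cells, went from 7.15 to 4.76 at 6 hr and from 8.44 to 6.7 at 24 hr. Il10, an anti-inflammatory cytokine, was well above background on both DMSO arrays and on neither JQ1 array. It was therefore at least 5.73-fold lower at 6 hr and at least 10.1-fold lower at 24 hr. Il10 passed the filter through the DMSO arrays alone, so its limma call adds no support. The Th2 cytokines Il13 and Il4 were expressed in these Th1 cells too, and fell 5.42-fold and 5.34-fold and 3.79-fold and 4.3-fold. Of 12 TNF superfamily ligands, all measured on 4 arrays, 7 fell (58.3%) and 0 rose. Fasl, the death receptor ligand, went from 2.21 to -0.16 and from 3.46 to 1.24, and Lta, lymphotoxin alpha, fell 3.94-fold and 2.01-fold.

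Of 13 chemokines and chemokine receptors well above background on all 4 arrays 6 fell (46.2%, against 18.8% of genes so measured) and 2 rose (15.4%, against 11.8%). Of all 19 tested 10 were called lower, but that count takes in genes not well above background on every array and adds no support. Cxcl10, a ligand of Cxcr3, fell 3.11-fold and 2.62-fold, and Ccr7, the lymph node homing receptor of naive cells, rose 2.33-fold and 2.71-fold. Of 21 costimulatory and inhibitory receptors 8 fell (38.1%, against 18.6% of all genes) and 1 rose (4.76%, against 11%). In Cy3 alone 13 of the 21 fell and 1 rose, beside 2426 and 1644 of all 12275 genes. Btla, an inhibitory receptor, lay at -1.48 and -1.27 with DMSO and at -3.48 and -3.27 with JQ1. Tigit went from 3.18 to 0.59 at 6 hr and from 2.34 to 1.03 at 24 hr, but at 24 hr it changed by -0.6 in Cy3 alone, under 2-fold, and by 0.72 in Cy5. Ctla4 went from 3.22 to 1.37 and from 1.97 to a JQ1 value not well above background, at least 3.63-fold lower at 24 hr. Of 29 T cell receptor and proximal signalling genes 11 fell (37.9%) and 3 rose (10.3%), a share of rises close to that of all genes. Cd5, a brake on receptor signalling, fell 4.41-fold and 3.95-fold and Cd6, its relative, 2.82-fold and 3.97-fold (mean changes of -1.74 and -1.1 for its 2 probes), whereas Ppp3ca, the calcineurin catalytic subunit, rose 2.02-fold and 2.92-fold.

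Among genes of ribosome production and of mitosis the share that fell was above that of all genes. Of 32 ribosome biogenesis and nucleolar genes 21 fell (65.6%, against 18.6% of all genes) and 0 rose, and the count at least 2-fold lower was 13 at 6 hr and 3 at 24 hr. Dkc1, the pseudouridine synthase dyskerin, lay at 2.02 and 0.35 at 6 hr and at 2.1 and 0.86 at 24 hr, and Gar1, its partner, fell 2.96-fold and 2.22-fold. Of 29 mitosis genes 16 fell (55.2%, against 18.6%) and 0 rose, with 2 at least 2-fold lower at 6 hr and 9 at 24 hr. Bub1b, of the spindle checkpoint, went from 4 to 2.42 and from 3.6 to 2.08, and Ccnb1, cyclin B1, fell 2.23-fold and 2.45-fold. Whether the timing of these lists differed was not tested. Of 30 replication genes 4 fell (13.3%) and 2 rose (6.67%), both below the shares of all genes, and none changed 2-fold in the ratio. In Cy3 alone 7 of the 30 fell and 1 rose, beside 2426 and 1644 of all 12275 genes, and 1 was at least 2-fold lower at each time. The 6 hr median of the list less that of all genes turned from 0.03 to -0.15 with median or spike-in centring and to -0.02 in Cy3 alone. Gins2, of the replicative helicase, fell 1.87-fold and 1.82-fold. Myc, a known BET target in many tumour lines, lay at 2.52 and 1.81 at 6 hr and at 3.06 and 2.57 at 24 hr, a modest fall of 1.64-fold and 1.4-fold (limma, adjusted p 0.0219). Mxd4, a Myc antagonist, rose 2.57-fold and 3.69-fold. The 31 cytosolic ribosomal protein genes held no 2-fold change, with 0 falling and 3 rising (9.68%, against 11% of all genes), and the mean changes of these 3 (Rps2, Rps20 and Rplp0) turned below 0 under both spike-in scalings.

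**Figure D4:**
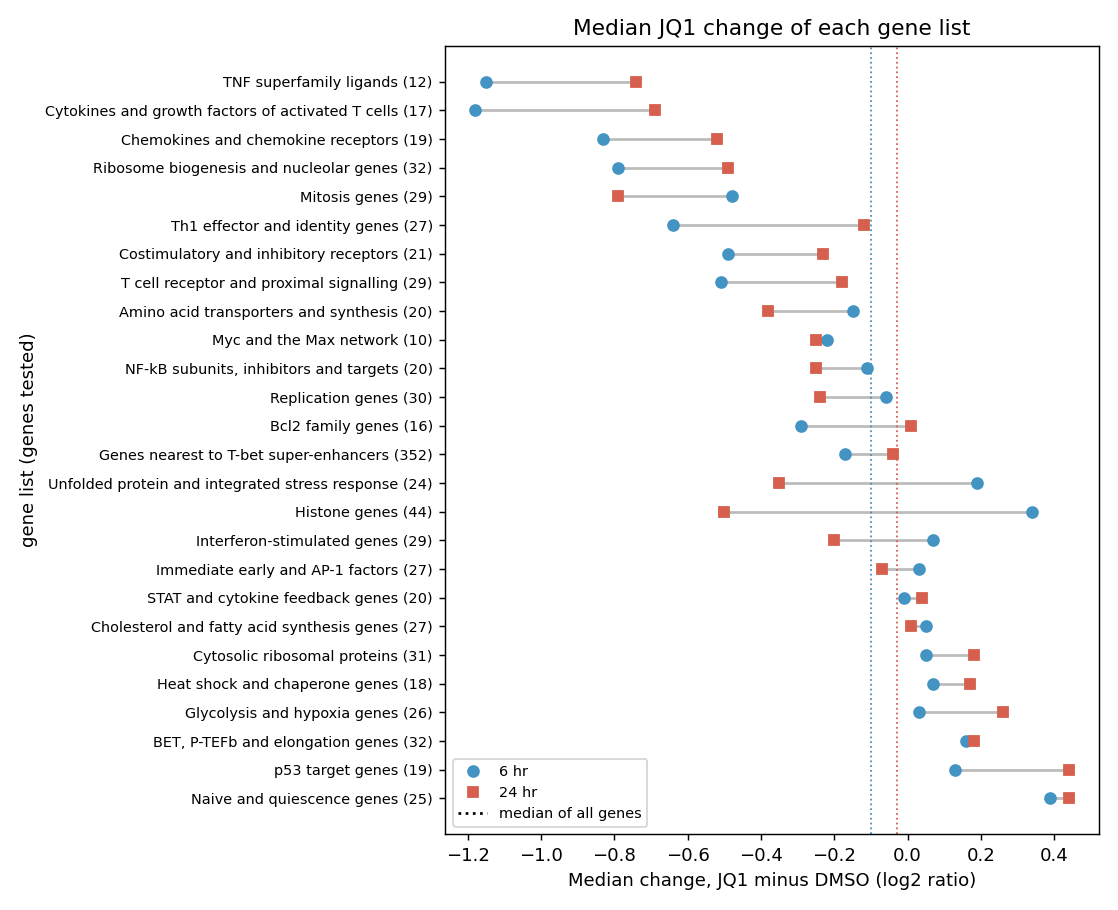
Median change with JQ1 (x axis, log2 ratio) of the tested members of each gene list (y axis, with the number tested), at 6 hr as circles and 24 hr as squares, for lists with at least 10 genes tested; dotted lines are the medians of all genes. At 6 hr cytokines (-1.18) and TNF ligands (-1.15) lie farthest to the left and at 24 hr mitosis genes (-0.79), while in Cy3 alone cytokines lay at -1.26 at 24 hr and mitosis genes at -0.86; naive and quiescence genes lie farthest to the right at 6 hr (0.39), and at 24 hr level with p53 targets (0.44).

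Among genes of the transcription machinery that JQ1 acts on, rises and falls were both found. Hexim1, the inhibitor that holds P-TEFb inactive and a usual marker of BET inhibition, lay at -1.69 with DMSO and -0.1 with JQ1 at 6 hr, and at -1.72 and -1.22 at 24 hr. It rose 3.03-fold and 1.41-fold (limma, adjusted p 0.0158). Brd2 rose 2.01-fold and 1.18-fold (limma, adjusted p 0.0497), and its mean change turned to -0.04 with spike-in centring and -0.23 with a spike-in shift. Of 32 BET, P-TEFb and elongation genes tested 4 fell (12.5%, against 18.6% of all genes) and 7 rose (21.9%, against 11%). Sertad1, a regulator of cyclin-dependent kinase activity, rose 3.07-fold and 3.03-fold, Cdk7, a kinase of the initiation factor TFIIH, fell 2.57-fold and 2.01-fold, and Larp7, which binds 7SK RNA with P-TEFb, fell 2.14-fold and 1.6-fold.

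Signalling transcription factors were mixed. Of 27 immediate early and AP-1 factors 3 fell (11.1%, against 18.6% of all genes) and 6 rose (22.2%, against 11%). Batf lay at 1.04 and -0.97 at 6 hr and at 0.91 and -0.95 at 24 hr, and Fosl1 and Batf3 fell 3.25-fold and 3.92-fold and 2.71-fold and 2.98-fold. Jun, in contrast, rose from -0.61 to 1.03 and from -0.76 to 0.27 (limma, adjusted p 0.00211). Of 20 NF-kB genes 4 fell (20%, close to the share of all genes) and 1 rose (5%), with Bcl3 lower by 3.27-fold and 1.7-fold. Of 20 STAT and feedback genes 5 fell (25%) and 8 rose (40%), and Bcl6, a transcriptional repressor characteristic of follicular helper cells, rose 2.5-fold and 1.98-fold.

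Genes of naive and quiescent T cells rose more often than they fell. Of 25 tested 11 rose (44%, against 11% of all genes) and 6 fell (24%, against 18.6%), with median changes of 0.39 and 0.44. Besides Tob1 and Klf2, Txnip, an inhibitor of thioredoxin and glucose uptake, went from -3.82 to -1.96 and from -4 to -2.21, with mean changes of 0.91 and 1.83 for its 2 probes. Of 19 p53 target genes 5 rose (26.3%) and 4 fell (21.1%), among them Gadd45a, a growth arrest gene that rose 1.9-fold and 3.41-fold. Fas, the death receptor, fell 1.98-fold and 2.37-fold. In the stress response list Ddit4, an inhibitor of mTORC1, rose 1.99-fold and 3.71-fold. With spike-in centring or a spike-in shift, limma called no gene higher, so every rise given here is relative to the bulk of genes.

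A few histone genes had large rises, while the share of the list that rose was close to that of all genes. H2bc4 lay at -1.43 and 1.45 at 6 hr and at -1.77 and -0.08 at 24 hr, a rise of 7.35-fold and 3.24-fold (limma, adjusted p 0.00107). H1f2, a linker histone, rose 6.11-fold and 2.02-fold, and H2ac18 rose 2.48-fold and 7.95-fold. Of 44 histone genes tested 6 were at least 2-fold higher at 6 hr and 3 at 24 hr, 6 rose by limma (13.6%, against 11% of all genes) and 1 fell (2.27%), and the median change was 0.34 at 6 hr and -0.5 at 24 hr. Many histone genes are near-identical copies, so the values of members of the same cluster are uncertain.

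Promoters of genes that rose are shown because CCAAT, the NF-Y box that is usual in histone promoters, was common there. Sequences are the 200 bases before the annotated start, from the RefSeq table of build GRCm38.p6 on the strand of the gene, with any match to a searched motif in capitals. The motifs searched, on both strands, were CCAAT, the TATA box letters TATAAA, the E-box letters CACGTG, the AP-1 letters TGANTCA and the motifs of CRE and NF-kB, given by name, and ATTGG is CCAAT on the other strand. The first 3 promoters belong to genes with lasting rises and the last 2 to strong lasting reductions, and they were chosen after motif matches had been seen.
H1f2, chr13:23738607-23738806, plus strand: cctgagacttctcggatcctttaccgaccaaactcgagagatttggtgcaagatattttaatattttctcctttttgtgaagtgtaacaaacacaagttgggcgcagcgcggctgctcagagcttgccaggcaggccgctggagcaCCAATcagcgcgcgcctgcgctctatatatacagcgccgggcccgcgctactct
Txnip, chr3:96557757-96557956, plus strand: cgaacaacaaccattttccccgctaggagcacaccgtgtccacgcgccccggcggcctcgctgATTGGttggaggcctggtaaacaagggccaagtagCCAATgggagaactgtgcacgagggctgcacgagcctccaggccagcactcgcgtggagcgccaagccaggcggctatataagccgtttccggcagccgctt
Tob1, chr11:94211254-94211453, plus strand: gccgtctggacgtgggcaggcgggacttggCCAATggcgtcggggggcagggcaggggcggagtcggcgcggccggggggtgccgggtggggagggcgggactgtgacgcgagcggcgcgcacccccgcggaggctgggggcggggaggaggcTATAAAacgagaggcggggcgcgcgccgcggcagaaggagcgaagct
Il1rl1, chr1:40429370-40429569, plus strand: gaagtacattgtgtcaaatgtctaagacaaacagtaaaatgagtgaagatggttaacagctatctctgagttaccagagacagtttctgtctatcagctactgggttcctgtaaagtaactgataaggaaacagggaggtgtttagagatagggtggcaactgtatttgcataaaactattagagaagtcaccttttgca
Bdh2, chr3:135281021-135281220, plus strand: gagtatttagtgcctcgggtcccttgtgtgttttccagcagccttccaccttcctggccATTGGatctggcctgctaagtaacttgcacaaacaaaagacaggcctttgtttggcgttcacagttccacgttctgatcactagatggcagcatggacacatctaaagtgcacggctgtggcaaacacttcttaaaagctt
H1f2 holds CCAAT, Txnip holds it on both strands, Tob1 holds it with a TATA box, Bdh2 holds it on the other strand, and Il1rl1 holds no match in this window. The table lists 2 starts for Il1rl1, and the window before the first of them was read, as for every gene with more than 1 start. The 250 bases before the start were available for 9860 of 12275 genes tested, 307 of 378 lasting lower genes and 163 of 208 lasting higher genes. CCAAT was found in 50.3% of the lasting higher, 32.6% of the lasting lower and 36.8% of all promoters. TATAAA was found in 9.2%, 10.4% and 7.26%, and the AP-1 letters in 1.84%, 4.56% and 4.49%. In the same order the E-box letters were found in 6.13%, 9.77% and 8.5%, the CRE motif in 3.07%, 2.61% and 2.86%, and the NF-kB motif in 1.23%, 1.95% and 1.44%. These shares are a description of letters in a window, and no binding was measured.

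Early changes, of at least 2-fold at 6 hr and under 0.5 (log2) at 24 hr, were seen for 101 genes lower and 34 higher. Late changes, the reverse, were seen for 57 lower and 64 higher. With spike-in centring the early counts were 5966 lower and 0 higher and the late counts 0 and 188. With a spike-in shift the early counts were 6649 and 0 and the late counts 0 and 141. The early higher and late lower classes were thus empty under both spike-in scalings. Sphk1, which makes the lipid signal sphingosine 1-phosphate, lay at 5.19 and 3.24 at 6 hr and at 5.39 and 5.68 at 24 hr. Niban2 went from 4.49 to 2.78 at 6 hr and from 4.2 to 4.28 at 24 hr, with mean changes of -0.82 and -0.31 for its 2 probes. Dmwd went from 3.41 to 1.58 and from 2.33 to 2.26. Mpzl2, an adhesion protein, was early as a ratio (-1.93 and -0.21) but in Cy3 alone it changed by -2.65 and -1.22, and its mean change was 0.29 in the scanner software's log ratio. On the higher side Polg2, a subunit of the mitochondrial DNA polymerase, went from -1.61 to 0.42 at 6 hr and from -1.89 to -1.45 at 24 hr, while the mean change of its 2 probes ran from 0.25 to 1.23. Dhx40, a helicase with 2 probes of mean change 0.42 and 1.06, went from 0.04 to 1.71 and from -0.57 to -0.13, Bmp7, a growth factor, from -0.51 to 0.69 and from -0.44 to -0.48, and Elmod3 from -0.6 to 0.57 and from -1.73 to -2.07.

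Among late changes S100a6, a calcium-binding protein of activated cells, lay at 5.33 and 4.94 at 6 hr and at 4.79 and 1.64 at 24 hr. Its 24 hr change was -3.14 as a ratio and -1.92 in Cy3 alone, and its Cy5 signal changed by 1.22. Ifitm3, an interferon-induced antiviral protein, lay at 3.88 and 3.63 and then at 3.6 and 0.62. Chac1, a stress-induced glutathione-degrading enzyme, had changes of 0.19 and -1.89, and Spata31 of 0.01 and -1.99. Late rises included Selenop, a selenium transporter, from -5.16 to -4.86 at 6 hr and from -5.51 to -3.61 at 24 hr. Metrnl, Maged1 and Limd2 had changes of 1.38, 1.28 and 1.28 at 24 hr and of -0.22, -0.32 and -0.38 at 6 hr. A test of the difference between times used all 8 Th1 arrays with DMSO or 500 nM JQ1, unstimulated and reactivated. It called 0 of 12250 genes (limma, smallest adjusted p 0.149, for Ifitm3, and 584 genes at an unadjusted p under 0.05). The early and late classes are therefore descriptions, and no gene was shown to differ between the times.

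Genes with higher levels after reactivation had lower medians with JQ1 than all genes. To keep choice and readout on separate arrays, genes were chosen in the DMSO arrays of 1 time and read in the JQ1 change of the other. The 1222 genes at least 2-fold higher in reactivated than unstimulated cells at 24 hr had a median JQ1 change of -0.59 at 6 hr, and 25.6% of them were at least 2-fold lower, against 6.41% of all genes. The 1050 genes chosen at 6 hr had a median change of -0.42 at 24 hr, and 18.8% of them were at least 2-fold lower, against 4.77% of all genes. Genes at least 2-fold lower on reactivation had medians of 0.11 at 6 hr (1492 genes) and 0.27 at 24 hr (1041 genes), and 6.84% and 12.4% of them were at least 2-fold higher, against 2.77% and 3.54% of all genes. The 586 genes lower at 24 hr had a median change of -0.3 with 50 nM JQ1 at 6 hr, and 25 of them (4.27%) were at least 2-fold lower, against 0.236% of all genes, whereas with 500 nM at 6 hr, on arrays sharing the DMSO control, their median change was -1.18.

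Part of the lasting response was also present in unstimulated Th1 cells. Of the 378 lasting lower genes 122 (32.3%) were at least 2-fold lower in unstimulated cells at both times as well, and 66 (17.5%) stayed within 0.5 (log2) at both. Of the 208 lasting higher genes 86 (41.3%) were at least 2-fold higher and 15 (7.21%) stayed within 0.5. Of all 12250 genes 2.59% were at least 2-fold lower in unstimulated cells at both times, 1.32% higher, and 62.2% within 0.5. The difference of the JQ1 effect between reactivated and unstimulated cells was tested on the 8 arrays, with 2 residual degrees of freedom. It was lower in reactivated cells for 135 of 12250 genes (1.1%) and higher for 163 (1.33%) by limma with Benjamini-Hochberg adjustment. Leaving out either array of the unstimulated 24 hr pair left 20 and 7 such genes, and of the 6 hr pair 26 and 26. With spike-in centring 2 and 0 were called, with a spike-in shift 7 and 0, and with the scanner software's log ratio 0 and 0.

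Il33, an alarmin and the ligand of the receptor encoded by Il1rl1, was measured on both reactivated DMSO arrays. It lay at 4.32 and 0.17 at 6 hr and at 3.54 and 0.21 at 24 hr in reactivated cells, with both JQ1 values not well above background, so it was at least 10.6-fold and at least 6.39-fold lower. With 50 nM JQ1 at 6 hr its ratio was 2.3. It was well above background on 0 of 4 unstimulated arrays, so no change could be measured there and its difference between the cell states is no test of the JQ1 effect. Bdh2 and Il10 were called too, but each was well above background on only 2 of 4 unstimulated arrays, and Il10 on neither reactivated JQ1 array, so the size of their differences was not measured. Bdh2 lay at 0.64, 0.08, 0.35 and 0.17 on the unstimulated arrays. In the other direction stood genes with large negative changes in unstimulated cells. Podnl1, a matrix proteoglycan relative, changed by -2.47 and -3.06 in unstimulated and by 0.08 and -0.24 in reactivated cells. Eya2, a phosphatase and transcriptional cofactor, changed by -1.69 and -2.41 against 0.28 and 1.07 (its mean change in reactivated cells was -0.08 with spike-in centring and -0.18 with a spike-in shift), and Vldlr, a lipoprotein receptor, by -1.64 and -1.48 against 0.13 and 1.48, with mean changes in reactivated cells of 0.21 and 0.8 for its 2 probes. Ifng as a ratio changed by -1.1 and -1.6 in unstimulated cells, a difference of 1.31 (limma, adjusted p 0.0198). In reactivated cells its Cy5 signal moved as given above, and the part of that in this difference was not tested.

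Genes nearest to T-bet super-enhancers, a list that the study made from binding data, were measured for 352 of 472 names. Of them 88 (25%) fell and 45 (12.8%) rose, against 18.6% and 11% of all genes, and the median changes were -0.17 and -0.04. Relative to all genes the sign of the 24 hr median turned under the scanner software's log ratio. Il1rl1, Il10, Ptpn5 and Cxcr3 were the members with the largest mean changes, all lower. Il10 was not well above background on either JQ1 array, so its change is known only as a bound and its rank is uncertain.

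Remaining lists of survival, stress and metabolism held falls and rises side by side, many at shares close to the 18.6% and 11% of all genes. Of 16 Bcl2 family genes 6 fell (37.5%) and 4 rose (25%), with Bcl2l2, a survival protein, lower by 2.95-fold and 2.47-fold and Bnip3l, a mitophagy receptor, higher by 1.89-fold and 2.19-fold. Of 18 heat shock and chaperone genes 2 fell and 2 rose (11.1% each), and of 24 genes of the unfolded protein and integrated stress response 5 fell (20.8%) and 3 rose (12.5%). Of 29 interferon-stimulated genes 6 fell (20.7%) and 5 rose (17.2%), with Gbp3, a guanylate-binding protein, lower by 2.68-fold and 2.5-fold. Of 26 glycolysis and hypoxia genes 3 fell (11.5%) and 1 rose (3.85%), and Egln3, an oxygen sensor, fell 2.5-fold and 2.3-fold. Of 27 cholesterol and fatty acid synthesis genes 6 fell and 6 rose (22.2% each), with Dhcr7, of the last step of cholesterol synthesis, higher by 1.92-fold and 2.65-fold and Elovl6, a fatty acid elongase, lower by 1.83-fold and 2.26-fold. Of 20 amino acid transporter and synthesis genes 8 fell (40%) and 1 rose (5%), among them Shmt1, of serine and glycine metabolism, lower by 1.77-fold and 2.39-fold.

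Some markers of other cells were called as well, in lists of 8 tested genes or fewer, beside 18.6% of all genes lower and 11% higher. Of 8 B cell markers 5 were tested, all well above background on 4 arrays, and of these 4 fell (80%) and 0 rose, and the list median was 1.61 and 0.35 at 6 hr and 1.62 and 0.62 at 24 hr; Cd79a, Pax5 and Blk were not well above background on enough arrays to be tested. Of 8 CD8 and NK cell markers 6 were tested and all 6 were called lower, with list medians of 0.69 and 0.01 at 6 hr and 0.47 and -0.03 at 24 hr, and Ncr1 and Klrb1c were not tested. Only 2 of these 6 were well above background on all 4 arrays, Klrd1 and Gzma. The others passed the filter without 1 or both JQ1 arrays, so their calls are no support for a fall of the list. Klrd1, an NK receptor chain, fell 4.61-fold and 3.92-fold, and Gzma, a granzyme, 1.83-fold and 6.02-fold. Of 12 myeloid and dendritic cell markers 5 were tested and 3 were well above background on all 4 arrays, of which 0 fell and 1 rose. Flt3, called lower, was well above background on both DMSO arrays and neither JQ1 array, so its call is no support for a fall. The list medians over the 5 were -0.23 and 0.29 at 6 hr and -0.42 and -0.2 at 24 hr. Lyz2, Cd14 and Adgre1 were among those not tested. Of 8 T cell markers, all well above background on 4 arrays, 3 fell (37.5%), Cd5, Cd2 and Lck, while Cd4 had changes of -0.26 and -0.18 and Cd3e of -0.41 and 0.35. Of 7 Th2 markers 4 were well above background on all 4 arrays, of which 3 fell and 0 rose, and Gata3 had changes of -0.01 and -0.13. Of 7 Th17 and Treg markers 5 were tested, and 1, Il17f, was well above background on all 4 arrays and fell. Ccr6 was called lower too, but it was well above background on both DMSO arrays and neither JQ1 array, so its call is no support for a fall. The part of other cells in the changes above was not tested.

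**Figure D5:**
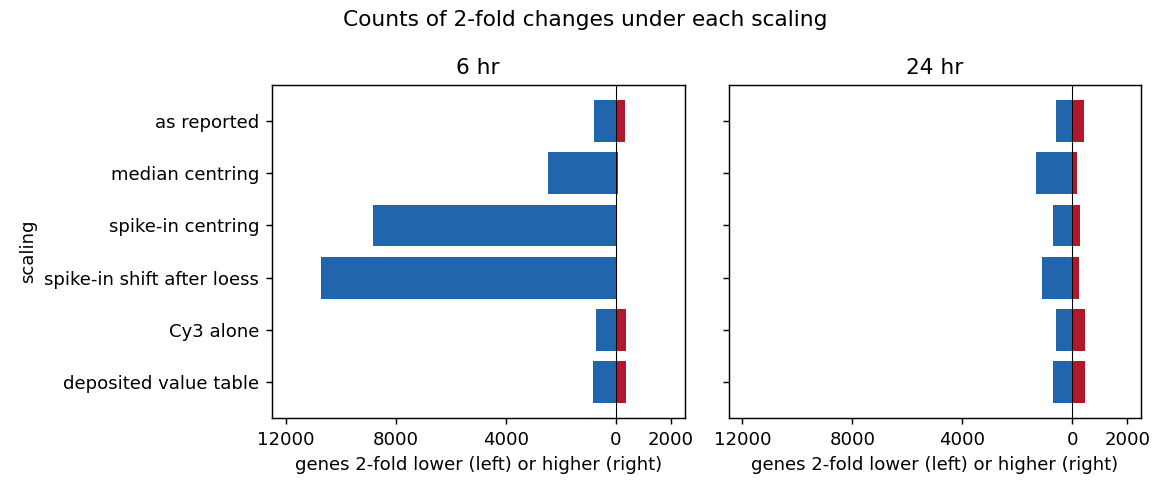
Number of genes at least 2-fold lower (blue, to the left) or higher (red, to the right) with JQ1 (x axis, genes) at 6 hr and 24 hr under 6 scalings (y axis). The 6 hr bars grow from 787 lower genes as reported to 8817 with spike-in centring and 10716 with a spike-in shift, while at 24 hr the same scalings give 696 and 1105 in place of 586.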

How the data were processed

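Gene expression of 24 conditions was measured on dual-colour Agilent arrays, and the report rests on the 4 of reactivated Th1 cells given DMSO or 500 nM JQ1. Per the labels, sample RNA was labelled with Cy3 and naive reference RNA with Cy5, with no dye swap, and spike-in mixes went into both. The scanner files deposited by the authors give spot intensity (median signal and local background) from Agilent Feature Extraction 10.7.1.1. Their log10 ratio column is the scanner software's own processed ratio of Cy5 over Cy3. A deposited table of log2 values covers 34710 of 55681 probes. How it was normalized is not given in the sources used here, and its r with the ratios computed here was 0.981 to 0.996.

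Normexp background correction (offset 50) and loess were run in limma 3.58.1 (R 4.3.3), flagged spots were left out, and ratios were turned to Cy3 over Cy5. RefSeq gave symbols for 26425 probes by accession and 12 by name, and 29244 had none. Each of 20028 genes was read from its brightest probe, and 12275 with Cy3 well above background on at least 2 of the 4 arrays were tested. Each condition had 1 array, their number limits the precision, and nothing says that the times came from separate cultures, so p-values measure only the spread between these samples, which may be technical. limma (lmFit, eBayes, Benjamini-Hochberg at 0.05) used time as a block on 4 arrays, or cell state and time as a block on 8.

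Bounds ("at least") used the lowest Cy3 signal well above background. Named genes were, among those well above background on all 4 arrays, the 6 lasting changes in each direction with the largest smaller change and 4 for each early and late class, and besides these up to 4 per list, 3 per interaction direction and 8 fixed genes. The members and lists were chosen with earlier results of these data known. The fits were tested on simulated data, and other scalings, filters and fits were tried. In the simulated data 26 of 226 calls of the 4-array fit were false. For the 8-array fits, 14 of 196 calls by cell state and 10 of 189 by time were false. Th2, flavopiridol and the other Th1 arrays entered only where named. A few genes of the lists and of the fixed genes are counted but not reported here by name.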

Additional observations from a re-analysis of the deposited data

Results flagged for a closer look

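The JQ1 effect differed between reactivated and unstimulated Th1 cells, by an interaction test over 8 arrays, for 135 genes with a lower and 163 with a higher effect in reactivated cells. The difference, reactivated less unstimulated, was -3.81 (log2) for Il33, -3.8 for Bdh2 and -2.81 for Il10. Il33 and Il10 were not well above background on either JQ1 array of reactivated cells. On the 4 unstimulated arrays Il33 was well above background on 0 and Bdh2 and Il10 on 2 each, so these 3 values rest in part on undetected signals. It was 2.73 for Eya2, 2.69 for Podnl1 and 2.36 for Vldlr. Outside the comparisons, which used only probes with a gene symbol, 88 of 11239 probes without a symbol were at least 2-fold higher with JQ1 than with DMSO at both times (0.783%), and 103 were at least 2-fold lower (0.916%). No group held enough arrays for a check of outlying samples.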

How the results depend on the processing

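Counts of genes are given here as lower and higher. With median centring they were 2468 and 68 at 6 hr, 1327 and 161 at 24 hr, 1061 and 47 at both times, 262 and 6 early, 5591 and 444 by limma, and 408 genes had a lower effect in reactivated cells. With spike-in centring they were 8817 and 10 at 6 hr, 289 higher at 24 hr, 692 and 9 at both, 5966 and 0 early, 0 and 188 late, 92 and 0 by limma, and 2 and 0 for JQ1 by reactivation. With a spike-in shift after loess they were 10716 and 10, 1105 and 233, 1102 and 9, 6649 and 0 early, 0 and 141 late, 217 and 0 by limma, and 7 and 0 by reactivation. With the scanner software's log ratio they were 1390 and 884, 1143 and 889, 695 and 498, 284 and 149 early, 199 and 139 late, and 0 and 0 by limma and by reactivation. A fold limit of 1.5 gave 2241 and 1073, 1730 and 1262, and 1245 and 705, and a limit of 3 gave 156 and 63, 151 and 91, and 78 and 36. No background subtraction gave 65 early higher and 86 late lower genes. JQ1 by reactivation gave 100 higher with Cy3 alone, 87 with the deposited table, 94 with the mean of all probes, and 88 lower and 87 higher with no signal filter. Leaving out 1 array gave 20 to 209 lower and 7 to 269 higher genes for JQ1 by reactivation. In the 8-array fit, an alternative partly chosen after seeing the data, it gave 1404 to 2272 lower and 905 to 1350 higher genes for JQ1 in reactivated cells, the 1404 without either reactivated 6 hr array and the 905 without either reactivated 24 hr array. Without the replicate block (the time pair) limma called 658 lower and 358 higher. JQ1 by time gave 0 in each setting run. Induced genes kept a negative median relative to all genes under each scaling, filter and choice of probes. Leaving out 1 array and other fold limits were not run for them.

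Of 1798 values of named genes under an alternative, 1321 kept direction and call, 418 lost and 36 gained a call, and 23 turned. Rplp0 came to 0 with median centring. With spike-in centring the mean change was -0.04 for Brd2, -0.08 for Eya2, -0.01 for H3c4, -0.16 for Mxd1, -0.3 for Rplp0, -0.22 for Rps2 and -0.28 for Rps20. With the shift it was -0.23 for Brd2, -0.18 for Eya2, -0.01 for H3c4, -0.03 for Hspa4l, -0.15 for Itgax, -0.21 for Mxd1, -0.34 for Rplp0, -0.25 for Rps2 and -0.32 for Rps20. With the software's ratio it was 0.04 for Ccl9, 0.75 for Csf2, 0.27 for Ebf1, 0.42 for Havcr2, 0.82 for Hk2 and 0.29 for Mpzl2. The cause was not tested.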
